A study of Homo sapiens with 12 samples.

Results

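Among 60580 genes counted in HCT116 cells, 41 were near silent in DMSO and expressed after treatment with 5-FU in cells of both genotypes. They were chosen by their measured levels in CPM, the counts of a gene per 1000000 counts of its library. A gene was taken when it stayed under 0.5 CPM in each of 6 DMSO libraries and averaged at least 1.5 CPM in 5-FU in *miR-34a/b/c-KO* and likewise in wild-type (*WT*) cells, and symbols starting with LINC or UGT1A were left out. Of 42650 genes near silent in DMSO, 41 (0.0961%) met both 5-FU conditions, 30 met the one in wild-type cells only, 22 the one in cells without miR-34a/b/c only, and 42557 neither. The rise with 5-FU is therefore how the genes were found and is described below without a test. The size of the difference between the genotypes was not a criterion of the selection, and it was tested. The selection did bear on it, since the 30 and 22 genes that passed in cells of a single genotype were left out.

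HCT116 is a human colorectal cancer cell line with wild-type p53. The *miR-34a/b/c-KO* cells, here *KO* cells, had lost the regions encoding mature miR-34a and miR-34b/c by CRISPR/Cas9 editing, and the *WT* cells had received the Cas9 vector with no guide RNA. Cells of each genotype were treated with DMSO, the solvent, or with 4 µM 5-FU for 48 h, which gives 4 states with 3 labelled replicates each. Single cell clones were made for each genotype, and whether the replicates are separate clones is not given in the sources used here, so that p-values measure the spread between these samples only. The deposited counts of *WT* 5-FU replicate 1 were the same as those of *WT* DMSO replicate 3 in every gene (0 genes differed), and this file was left out, so that *WT* cells in 5-FU are represented by 2 libraries.

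5-FU is a fluorinated pyrimidine that blocks thymidylate synthesis and is built into RNA and DNA, and the resulting stress stabilizes p53, a transcription factor. p53 binds a pair of half-sites, each with a central C, 2 A or T bases, and a G, and the genes it activates include the precursors of miR-34. Many genes outside the working set of a cell line belong to other tissues, such as nerve, skin, vessel wall or blood cells, and a promoter with few CpG dinucleotides is common among tissue-restricted genes.

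Total counts ranged from 22831415 to 39064210 in the 11 libraries analysed (median 25698417), so that 1.5 CPM stood for 34.3 to 58.6 counts and 0.5 CPM for 11.4 to 19.5 counts. The labelled cell line matched its markers, since none of 10 epithelial genes of HCT116 was near silent, and their summed level was 6126 to 13180 CPM. *MIR34A*, *MIR34B* and *MIR34C* had 0 counts in every library, and *MIR34AHG*, the host transcript of miR-34a, had 4.25 to 5.25 CPM in *WT* DMSO, 21.5 to 22.4 in *KO* DMSO, 15.4 to 16.8 in *WT* 5-FU and 65.8 to 68.9 in *KO* 5-FU. The host transcript is not the deleted stretch, so it does not check the deletion. The summed level of 40 blood cell markers was 32.0 to 39.4 CPM in DMSO and 69.2 to 83.7 CPM in 5-FU. That of 24 stromal and endothelial markers was 36.7 to 63.6 CPM in DMSO and 74.8 to 92.9 CPM in 5-FU. None of the 41 genes is on either list. Of the defining markers, *PTPRC* of leukocytes had at most 1 count in a library, *CDH5* and *PECAM1* of endothelium at most 7 and 9, and 9 of the 40 markers (such as *NKG7*, *HBB* and *PF4*) and 1 of the 24 (*POSTN*) had 0 counts in all libraries. Other markers on these lists were well above that, each with its highest count in a 5-FU library, among them *CD68* (1398 counts), *PRF1* (553), *ITGAX* (331), *ITGAM* (272) and *CD33* (204) of blood cells and *COL1A1* (2311), *DES* (495), *ESAM* (246) and *VWF* (236) of stroma and endothelium. The part of other cell types in the levels below was not tested.

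In DMSO, the 41 genes had 0 to 15 counts in a library (median 3), and in 5-FU they had 30 to 371 (median 72). Their summed level was 4.80 to 5.06 CPM in *WT* DMSO, 5.90 to 6.84 CPM in *KO* DMSO, 127 to 132 CPM in *WT* 5-FU and 132 to 145 CPM in *KO* 5-FU. In every gene the lowest 5-FU library was above the highest DMSO library, by 3.51 times (*TAC3*) to 39.2 times (*RNASE7*), with a median of 8.34 times. Means lay between 1.61 and 9.83 CPM in *WT* 5-FU and between 1.57 and 11.5 CPM in *KO* 5-FU. Replicates in 5-FU spread by a median SD of 9.31% of the mean in *WT* cells and 13.6% in *KO* cells. In bulk RNA, a low level in every cell and a high level in a few cells cannot be told apart.

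**Figure D1:**
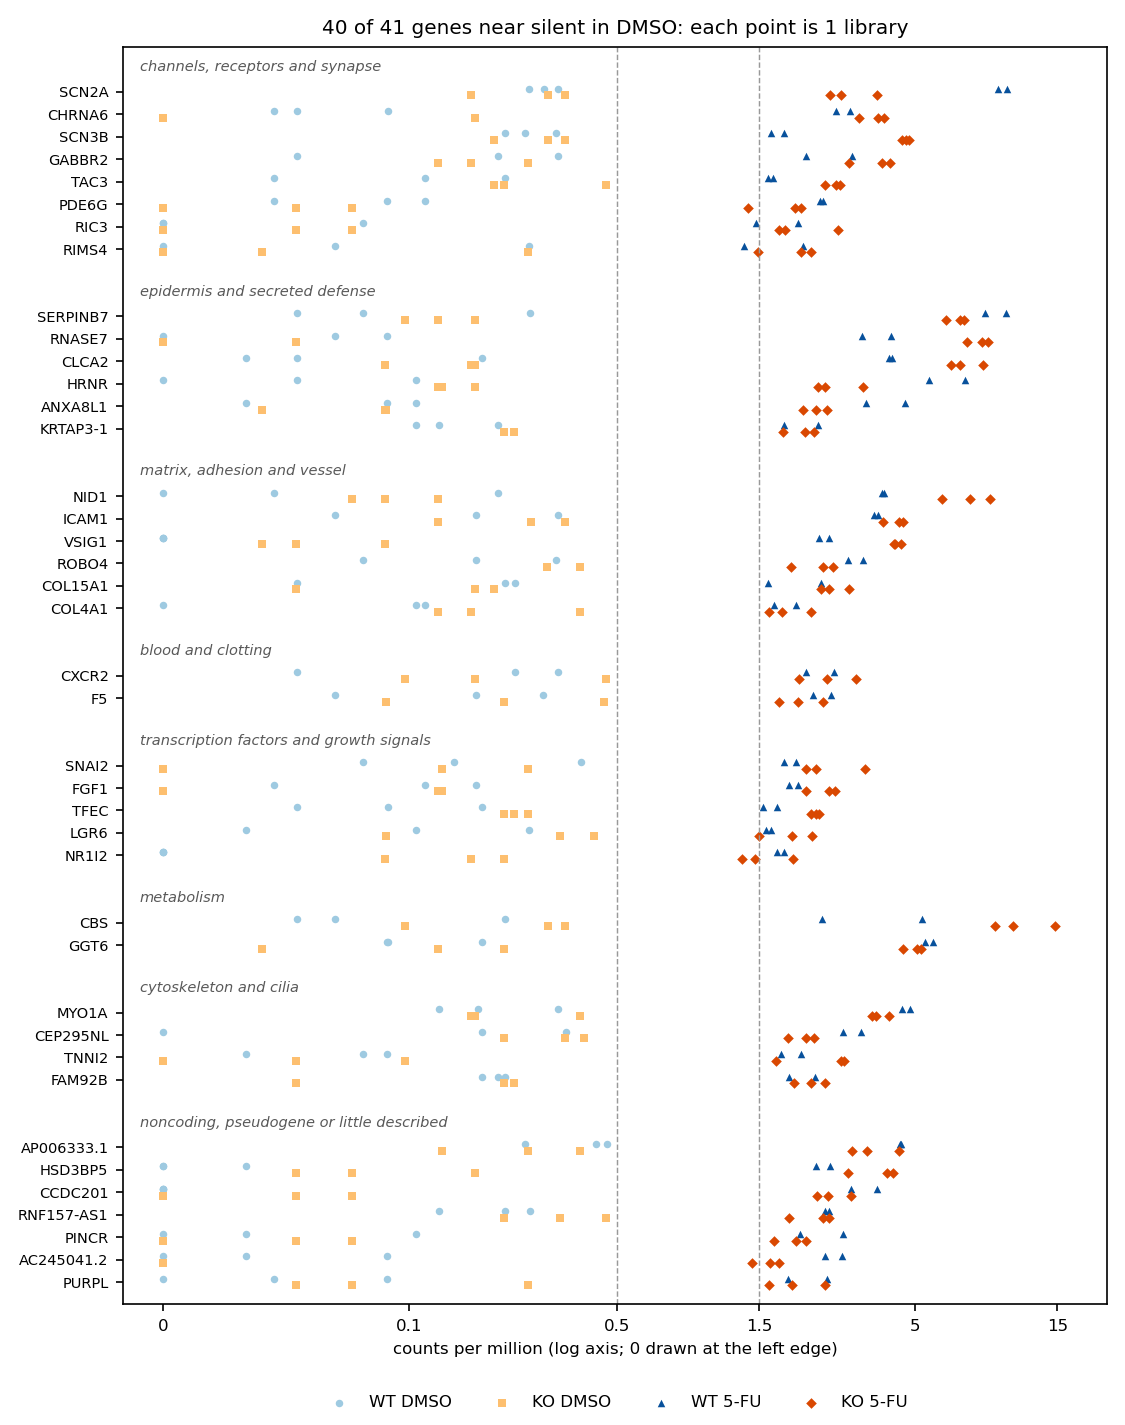
CPM of 40 of the 41 genes in 11 libraries on a log axis, with 1 point per library, genes grouped by the role of their product and a value of 0 drawn at the left edge. The dashed lines are the limits of the selection at 0.5 and 1.5 CPM, and between them stand only a few single 5-FU libraries whose group mean is above 1.5 CPM.

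Levels between genes were compared per kilobase of annotated exon. In 5-FU, the level per kilobase was 0.0931 to 3.53 CPM per kb in *WT* cells (median 0.671) and 0.0851 to 5.81 CPM per kb in *KO* cells (median 0.801). *RNASE7* was the highest in *KO* cells, with 5.81 CPM per kb, and *SERPINB7* in *WT* cells, with 3.53 CPM per kb. Next came *KRTAP3-1* in *WT* cells, with 2.83 CPM per kb, and *HSD3BP5* in *KO* cells, with 3.29 CPM per kb. *PURPL* was the lowest in both genotypes. Its annotated exons add up to 23638 bases, the union of many transcripts, so that the level per kilobase is low for a transcript that uses few of them.

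The limits of the selection cut through a continuum. Just inside the DMSO limit, the highest DMSO library had 0.463 CPM for *AP006333.1*, 0.460 for *RNF157-AS1*, 0.458 for *TAC3* and for *CXCR2*, and 0.451 for *F5*. Just outside it were *ANXA8* and *NNAT* with 0.502 CPM, *MUC19* with 0.542, and *ITGAM* and *NUPR1* with 0.543. In *WT* 5-FU, the lowest means inside were 1.61 CPM for *LGR6*, 1.63 for *TFEC*, 1.64 for *TAC3*, 1.72 for *RIMS4* and 1.73 for *SCN3B*. *ALG1L* with 1.48 CPM, *LCN15* with 1.46, *POU3F1* with 1.36, *CLDN1* with 1.15 and *TDRD5* with 0.914 fell short there only. In *KO* 5-FU, the lowest inside were *NR1I2* with 1.57 CPM, *AC245041.2* with 1.60, *PDE6G* with 1.80, *COL4A1* with 1.88 and *LGR6* with 1.89. *SIRPB2* with 1.40 CPM, *TCTEX1D4* with 1.38, *AOX1* with 1.30, *FLG* with 1.27 and *TENM4* with 1.09 fell short there only.

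Positions were taken from GENCODE release 44 on GRCh38, the build the authors used. Of the 41 genes, 39 had 1 position (*FAM92B* under its newer symbol *CIBAR2*), and *AC245041.2* and *AP006333.1* are given by name only. They comprise 35 protein coding genes, 3 long noncoding RNAs and 1 pseudogene on 19 chromosomes. Only 3 pairs of genes within the set lie near each other. *TAC3* and *MYO1A* on chromosome 12 overlap by 367 bp on the same strand, *GABBR2* and *COL15A1* are 234244 bp apart on chromosome 9, and *SCN3B* and *ROBO4* are 1228447 bp apart on chromosome 11. Strandedness of the libraries is not given in the sources used here, so reads of overlapping genes cannot be told apart. Exons of 25 of the 39 genes share no base with another gene, and over 10% is shared in 4: *ANXA8L1*, *ROBO4*, *ICAM1* and *RNF157-AS1*, of whose exon bases 50% lie opposite those of *RNF157*.

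The RefSeq promoter table (GRCh38.p14, 250 bases before to 50 after the start) held an entry for 25 of the 41 genes. Their promoters were poor in CpG. The median ratio of observed to expected CpG was 0.304, compared with 0.731 over 17917 promoters, 0.340 over 4554 promoters of coding genes near silent in DMSO and 0.848 over 9638 promoters of coding genes with at least 1.5 CPM in both 5-FU states. The genes thus lay close to other near-silent genes in this respect, and 6 of 25 (24%) had a ratio above 0.6, against 31.3% of near-silent and 84.9% of expressed coding genes. These 6 were *GABBR2* and *COL15A1* with 1.08, *CBS* with 1.03, *COL4A1* with 1.02, *NID1* with 0.86 and *ICAM1* with 0.77. The promoters of *CLCA2* and *PURPL* hold 0 CpG dinucleotides, those of *COL15A1* and *COL4A1* 45 and those of *CBS* and *GABBR2* 50. One promoter of each kind is shown here. The promoter of *CLCA2* (chr1:86423921-86424220, plus strand) is printed with TATAAA in capitals and that of *COL15A1* (chr9:98943657-98943956, plus strand) with each CG in capitals.
CLCA2: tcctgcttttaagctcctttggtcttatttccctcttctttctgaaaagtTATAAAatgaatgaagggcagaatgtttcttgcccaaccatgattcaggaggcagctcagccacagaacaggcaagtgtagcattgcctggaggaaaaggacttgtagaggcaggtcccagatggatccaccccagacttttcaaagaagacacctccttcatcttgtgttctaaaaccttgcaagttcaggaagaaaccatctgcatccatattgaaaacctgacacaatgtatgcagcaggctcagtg
COL15A1: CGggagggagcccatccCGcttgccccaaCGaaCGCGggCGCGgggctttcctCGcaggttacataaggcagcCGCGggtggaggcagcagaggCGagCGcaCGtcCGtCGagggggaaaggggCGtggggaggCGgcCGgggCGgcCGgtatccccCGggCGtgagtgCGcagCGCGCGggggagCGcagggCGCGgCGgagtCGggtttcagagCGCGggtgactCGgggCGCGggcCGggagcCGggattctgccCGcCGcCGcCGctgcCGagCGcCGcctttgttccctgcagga

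The same promoters were searched on both strands for short motifs. TATAAA, the core of the TATA box, was present in 4 of 25 (16%), against 10.2% of all promoters and 19% of those of near-silent coding genes. It began 31 bases before the start in *HRNR* and 30 in *ICAM1*, the usual distance of a TATA box, and 89 before it in *KRTAP3-1* and 200 in *CLCA2*. Other spellings were not searched, such as the TATATAA that lies nearer to the start in *KRTAP3-1*. TGAGTCA, the AP-1 motif, was found in 0 of 25 (4.25% of all promoters). The 10-base p53 half-site was present in 4 of 25, or 16% (*CXCR2*, *HRNR*, *PURPL* and *RNASE7*), against 6.16% of all promoters and 7.55% of near-silent ones. The 20-base p53 consensus of 2 adjoining half-sites was searched with both C-A/T-A/T-G cores kept and at most 2 mismatches in the 12 flanking positions. This form was present in 1 of 25, or 4% (*PURPL*, with 0 mismatches), against 0.134% of all. These are counts of letters in a window and were not tested. The promoters of *PURPL* (chr5:27472042-27472341, plus strand), *RNASE7* (chr14:21042112-21042411, plus strand) and *HRNR* (chr1:152224144-152224443, minus strand) are shown, the first for its 20-base consensus and the others as genes with a half-site that were called different between genotypes below, with p53 matches and TATAAA in capitals.
PURPL: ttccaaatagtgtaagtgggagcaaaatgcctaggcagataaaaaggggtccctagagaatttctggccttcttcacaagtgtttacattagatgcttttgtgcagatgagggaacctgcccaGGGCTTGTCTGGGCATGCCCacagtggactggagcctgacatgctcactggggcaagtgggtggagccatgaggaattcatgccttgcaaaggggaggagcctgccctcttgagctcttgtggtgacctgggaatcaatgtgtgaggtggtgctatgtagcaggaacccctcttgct
RNASE7: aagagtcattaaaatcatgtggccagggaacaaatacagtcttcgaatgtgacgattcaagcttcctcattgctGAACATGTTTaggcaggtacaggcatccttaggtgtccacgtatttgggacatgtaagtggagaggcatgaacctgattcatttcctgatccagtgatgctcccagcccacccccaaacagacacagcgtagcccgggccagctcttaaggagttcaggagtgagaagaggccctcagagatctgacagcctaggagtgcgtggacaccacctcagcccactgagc
HRNR: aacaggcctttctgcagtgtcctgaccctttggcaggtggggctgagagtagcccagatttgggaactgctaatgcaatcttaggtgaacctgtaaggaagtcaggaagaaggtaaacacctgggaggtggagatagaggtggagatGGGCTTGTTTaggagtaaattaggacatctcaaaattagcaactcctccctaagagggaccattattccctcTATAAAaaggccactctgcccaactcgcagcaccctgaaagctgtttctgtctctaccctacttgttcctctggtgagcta

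A wider search covered 5 kb on each side of the GENCODE start for the 20-base p53 consensus, with both C-A/T-A/T-G cores kept and at most 2 mismatches in the 12 flanking positions. This form was chosen after a search without mismatches had found no match near these genes. It matched near 4 of 39 genes (10.3%), *F5*, *PINCR*, *TAC3* and *VSIG1*, against 5.20% of 37634 genes and 4.96% of 6172 coding genes near silent in DMSO. Of 2 well known p53 targets, *CDKN1A* had 1 match and *MDM2* had 0, so the form misses known sites. The *PURPL* match of the RefSeq promoter was outside this window, since the GENCODE start of that gene lies 254578 bp upstream of the RefSeq start. The matches are printed with the cores in capitals and on the strand of the gene, minus for *F5* and *TAC3* and plus for the others, with distances taken from the middle of the match. That of *PURPL* (chr5:27472165-27472184) has 0 mismatches and lies 118 bp before the RefSeq start. That of *PINCR* (chrX:43176856-43176875) has 2 mismatches and lies 128 bp before the GENCODE start, and it has the same base as that of *PURPL* in 17 of 20 positions. The match of *F5* (chr1:169584670-169584689) is in an intron 1908 bp after the start, and that of *VSIG1* (chrX:108045077-108045096) in an exon 116 bp after the start. That of *TAC3* (chr12:57031585-57031604) lies 2712 bp before the GENCODE start, inside *MYO1A* (chr12:57028517-57051198). It is farther from the RefSeq start of *TAC3*, whose promoter entry is chr12:57016480-57016779.
PURPL: gggCTTGtctgggCATGccc
PINCR: gccCTTGtctggaCATGccc
F5: gaaCTTGttctaaCTTGtcc
VSIG1: agcCTAGtccaggCAAGcta
TAC3: tgaCATGtttggaCTTGact

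The genes most silent in DMSO had at most 3 counts in each of the 6 libraries. There were 8 of them, *CCDC201*, *ANXA8L1*, *AC245041.2*, *TNNI2*, *RIC3*, *RNASE7*, *PINCR* and *VSIG1*. *RNASE7*, a secreted antimicrobial ribonuclease of skin, had 0, 2 and 2 counts in *WT* DMSO and 1, 0 and 0 in *KO* DMSO. In 5-FU it had 129 and 121 counts in *WT* cells and 211, 215 and 170 in *KO* cells. Pooled over libraries and divided by their totals, the level in *KO* cells was 648 times higher in 5-FU than in DMSO, but this rests on 1 count in DMSO and its 95% counting interval runs from 116 to 25600. *VSIG1*, an adhesion protein of gastric epithelium, had 0 counts in all 3 *WT* DMSO libraries and 93 and 75 counts in *WT* 5-FU, at least 23.4-fold higher when the DMSO libraries are set to a floor of 3 counts each. In *KO* cells it went from 2, 1 and 1 counts to 108, 109 and 98. *CCDC201*, a coding gene with a coiled-coil name and little described, had 0 counts in *WT* DMSO and 145 and 89 in *WT* 5-FU, at least 32.0-fold higher. *AC245041.2* had 0 counts in *KO* DMSO and 34, 42 and 40 in *KO* 5-FU, at least 13.8-fold higher. The remaining ratios rested on 2 to 6 pooled DMSO counts, as in *RIC3* of *WT* cells, with a ratio of 74.3 (95% counting interval 20.1 to 620) on 2 counts. In the DMSO libraries *ANXA8L1* had 1 to 3 counts, *TNNI2* and *PINCR* 0 to 3 and *RIC3* 0 to 2. In the 5-FU libraries *ANXA8L1* had 48 to 180 counts, *TNNI2* 39 to 81, *PINCR* 43 to 112 and *RIC3* 40 to 71. Intervals and floors cover counting error only. They make no allowance for the selection of these genes by low DMSO and high 5-FU counts, which favours large ratios, and they are no test of the rise.

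Genes of channels, receptors and the synapse made up 8 of the 41. *SCN2A* encodes a pore-forming subunit of a voltage-gated sodium channel of neurons, and *SCN3B* an accessory subunit of such channels and a known p53 target. *SCN2A* had 0.253 to 0.316 CPM in *WT* DMSO, 0.161 to 0.333 in *KO* DMSO, 9.5 and 10.2 in *WT* 5-FU, and 2.83, 3.74 and 2.58 in *KO* 5-FU. *SCN3B* had 0.211 to 0.312 CPM in *WT* DMSO, 0.193 to 0.333 in *KO* DMSO, 1.64 and 1.81 in *WT* 5-FU, and 4.78, 4.51 and 4.64 in *KO* 5-FU. The pair thus stood in opposite order between genotypes in 5-FU, each without overlap of libraries, while in DMSO their ranges overlapped. *CHRNA6*, a nicotinic acetylcholine receptor subunit, had 3.02 and 2.70 CPM in *WT* 5-FU and 3.23 to 3.94 in *KO* 5-FU. *RIC3*, a chaperone that helps such receptors assemble, had 1.46 and 2.02 CPM in *WT* 5-FU and 1.75 to 2.76 in *KO* 5-FU. Both were thus present in the same cultures, from at most 4 counts in any DMSO library. *GABBR2*, a subunit of the metabotropic GABA receptor, *RIMS4*, of a presynaptic scaffold family, *TAC3*, the neurokinin B precursor, and *PDE6G*, the inhibitory subunit of the rod photoreceptor phosphodiesterase, had means of 1.64 to 2.61 CPM in *WT* 5-FU and 1.80 to 3.66 CPM in *KO* 5-FU. Of these, *TAC3* had the highest log2 fold change between genotypes of all genes not called (0.63, SE 0.306, FDR 0.101), with 1.66 and 1.61 CPM in *WT* 5-FU and 2.49, 2.80 and 2.72 in *KO* 5-FU. *GABBR2* had 3.07 and 2.15 CPM in *WT* 5-FU and 2.99, 4.12 and 3.85 in *KO* 5-FU, with overlap.

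Epidermal and defense genes numbered 6. *HRNR*, hornerin, is a repeat-rich protein of the cornified skin envelope. It had 0.105, 0.0421 and 0 CPM in *WT* DMSO and 0.125 to 0.167 in *KO* DMSO, and in 5-FU it had 7.37 and 5.54 in *WT* cells but 2.37, 2.49 and 3.33 in *KO* cells. *SERPINB7*, a protease inhibitor of the epidermis, had 0.0421 to 0.255 CPM in *WT* DMSO, 0.0967 to 0.167 in *KO* DMSO, 8.55 and 10.1 in *WT* 5-FU and 7.31, 7.04 and 6.35 in *KO* 5-FU. Both were higher in every *WT* 5-FU library than in any *KO* one. *RNASE7* and *CLCA2* stood in the opposite order. *RNASE7* had 3.30 and 4.14 CPM in *WT* 5-FU and 8.77, 8.37 and 7.45 in *KO* 5-FU. *CLCA2*, a chloride channel regulator and adhesion protein of stratified epithelia, had at most 0.176 CPM in DMSO, 4.07 and 4.17 in *WT* 5-FU and 6.61, 7.08 and 8.41 in *KO* 5-FU. *ANXA8L1*, an annexin, is taken up below with its near-identical copy. *KRTAP3-1*, a hair keratin-associated protein, had nearly the same mean in both genotypes in 5-FU, 2.09 ± 0.384 CPM (SD, n = 2) and 2.07 ± 0.251 CPM (SD, n = 3).

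Matrix, adhesion and vessel genes numbered 6. *NID1*, nidogen of the basement membrane, had 0.0352, 0 and 0.199 CPM in *WT* DMSO, 0.0645 to 0.125 in *KO* DMSO, 3.87 and 3.93 in *WT* 5-FU, and 8.93, 7.63 and 6.13 in *KO* 5-FU. *COL4A1*, a chain of the basement membrane collagen that nidogen binds, had 2.0 and 1.68 CPM in *WT* 5-FU and 2.24, 1.79 and 1.62 in *KO* 5-FU, with the genotypes overlapping. *COL15A1*, a chain of a collagen next to basement membranes, had 2.01 ± 0.565 CPM (SD, n = 2) and 2.66 ± 0.303 CPM (SD, n = 3). Of these 3 matrix genes, *NID1* was the only one called different between genotypes in the test below. *VSIG1* had 2.38 and 2.57 CPM in *WT* 5-FU and 4.49, 4.24 and 4.29 in *KO* 5-FU. *ICAM1*, the leukocyte adhesion ligand, had 3.74 and 3.63 CPM in *WT* 5-FU and 3.91 to 4.55 in *KO* 5-FU. *ROBO4*, a guidance receptor of endothelium, had 2.97 and 3.35 CPM in *WT* 5-FU and 1.91 to 2.65 in *KO* 5-FU.

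Smaller sets follow. *CXCR2*, a neutrophil chemokine receptor, and *F5*, coagulation factor V, had means of 2.41 and 2.44 CPM in *WT* 5-FU and 2.57 and 2.07 CPM in *KO* 5-FU, and the libraries of the genotypes overlapped in both. *F5* had 2.28 and 2.60 CPM in *WT* 5-FU and 1.74, 2.45 and 2.01 in *KO* 5-FU. *CXCR2* had 2.66 and 2.15 CPM in *WT* 5-FU and 2.04, 2.53 and 3.15 in *KO* 5-FU, so that its replicates spread as widely as its genotypes. Of the regulators, *SNAI2* (Slug, a transcription factor of epithelial-mesenchymal transition), *TFEC* (of the MiT family), *NR1I2* (the pregnane X receptor), *FGF1* (a fibroblast growth factor) and *LGR6* (an R-spondin receptor) had 1.61 to 1.95 CPM in *WT* 5-FU and 1.57 to 2.62 CPM in *KO* 5-FU, so all were close to the lower limit in *WT* cells. *TFEC* had 1.72 and 1.54 CPM in *WT* 5-FU and 2.33, 2.37 and 2.23 in *KO* 5-FU, with no overlap but no call (FDR 0.204). *SNAI2* in single libraries had 1.82 and 1.98 CPM in *WT* 5-FU and 2.33, 3.39 and 2.15 in *KO* 5-FU, and at most 9 counts in any DMSO library. Of metabolic genes, *GGT6*, of the gamma-glutamyltransferase family that handles glutathione, had 5.73 and 5.40 CPM in *WT* 5-FU and 5.23, 4.55 and 5.08 in *KO* 5-FU, after at most 5 counts in DMSO. *CBS*, cystathionine beta-synthase, the enzyme that condenses homocysteine with serine, is described with its copy below.

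Of genes of cytoskeleton and cilia, *MYO1A*, the brush border myosin of intestine, had 4.53 and 4.79 CPM in *WT* 5-FU and 3.70, 4.09 and 3.59 in *KO* 5-FU. *TNNI2*, fast skeletal troponin I, had 2.07 and 1.78 CPM in *WT* 5-FU and 2.83, 2.88 and 1.71 in *KO* 5-FU. *MYO1A* libraries were ordered by genotype and *TNNI2* libraries overlapped. *FAM92B*, named for a ciliary BAR domain, had 2.09 and 2.23 CPM on average in *WT* and *KO* 5-FU. *CEP295NL*, the lowest log2 fold change among genes not called (-0.62, SE 0.361, FDR 0.166), had 3.08 ± 0.295 CPM (SD, n = 2) and 2.10 ± 0.216 CPM (SD, n = 3), and 9.86% of its exon bases are shared with *TIMP2* on the same strand, which had 196 to 353 CPM on average in the 4 states.

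Among the noncoding genes, *PURPL* and *PINCR* are known as p53-induced long noncoding RNAs. *PURPL* had 0.0352, 0.0842 and 0 CPM in *WT* DMSO, 0.0418 to 0.25 in *KO* DMSO, 1.87 and 2.53 in *WT* 5-FU, and 1.62, 2.49 and 1.93 in *KO* 5-FU. *PINCR* had 0 to 0.105 CPM in DMSO, 2.87 and 2.05 in *WT* 5-FU, and 1.99, 1.67 and 2.15 in *KO* 5-FU. In both, the genotypes overlapped in 5-FU. *HSD3BP5*, a pseudogene of a steroid dehydrogenase, had 2.59 and 2.33 CPM in *WT* 5-FU and 4.20, 4.01 and 2.98 in *KO* 5-FU. *RNF157-AS1*, *AC245041.2*, *AP006333.1* and *CCDC201* had means of 2.52 to 4.46 CPM in *WT* 5-FU and 1.60 to 3.64 CPM in *KO* 5-FU.

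The difference between genotypes in 5-FU was fitted across all genes with edgeR, and a gene was called at an FDR (Benjamini-Hochberg adjusted p) under 0.05 with a fold change over 1.5. Of the 41 genes, 6 (14.6%) were higher in *KO* cells and 4 (9.76%) lower, and of 16123 genes tested, 7.58% were called higher and 10.6% lower. The share called higher was above that of all genes and the share called lower close to it, and neither difference was tested. Genes that passed the selection in *WT* or in *KO* cells only had been left out, which the shares of all genes do not reflect. At an unadjusted p under 0.05 by edgeR, in either direction, stood 11 of the 41 genes (26.8%), against 55.7% of all genes tested. The 6 genes called higher were *CBS*, *SCN3B*, *RNASE7*, *NID1*, *CLCA2* and *VSIG1*, and the 4 called lower were *SCN2A*, *HRNR*, *ANXA8L1* and *AC245041.2*. Every library of one genotype lay above every library of the other in all 10. The same was true of 14 of 41 genes (34.1%) with *KO* cells higher and 12 (29.3%) with *KO* cells lower, against 34.4% and 28.7% of all genes tested. The median log2 fold change of *KO* against *WT* cells was 0.0061 over the 41 genes and -0.0458 over all genes.

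Of the genes called higher, *SCN3B* had a log2 fold change of 1.35 (SE 0.219, FDR 9.63e-05), *CBS* of 1.48 (SE 0.281, FDR 0.000403) and *RNASE7* of 1.07 (SE 0.205, FDR 0.000427). *NID1* followed with 0.88 (SE 0.237, FDR 0.00568), *CLCA2* with 0.76 (SE 0.199, FDR 0.00484) and *VSIG1* with 0.73 (SE 0.220, FDR 0.0127). These 6 genes come from 4 of the role groups above, 2 each from the epidermal and the matrix group and 1 each from the channel and the metabolic group. Of the genes called lower, *SCN2A* had a log2 fold change of -1.76 (SE 0.175, FDR 6.38e-07) and *HRNR* of -1.33 (SE 0.235, FDR 0.000214). *ANXA8L1* had -0.87 (SE 0.245, FDR 0.00736) and *AC245041.2* -0.81 (SE 0.300, FDR 0.0373). *SERPINB7* passed the FDR (0.0215) with a log2 fold change of -0.50, short of the minimum fold. The other 30 genes had an FDR of 0.101 to 0.989 and standard errors of up to 0.462 on the log2 scale, so differences of the size of the minimum fold were not detectable in the least precise of them.

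Calls of *SCN3B*, *RNASE7*, *SCN2A* and *HRNR* stood under all 20 alternative settings. Not all of these settings could weigh on a call. Dropping the minimum fold change can only add calls, and leaving out a DMSO library hardly touches a difference within 5-FU. None of the 10 calls was lost in those settings. Fitting factors of unwanted variation (RUVg) is a step of the study's own methods, but the paper does not name its control genes. Those used here were chosen from these data, 11123 genes left after the 5000 with the lowest p-values between states were taken out. With 1 such factor in the model, 6 of the 10 calls were lost (*CBS*, *NID1*, *CLCA2*, *VSIG1*, *ANXA8L1* and *AC245041.2*). Of the variance of that factor, 99.8% lay between the 4 states. Among the 6 genes that lost their call, the log2 fold change moved nearer to 0 for *CBS* (0.35), *NID1* (0.52) and *AC245041.2* (-0.46). It moved farther from 0 for *CLCA2* (0.94), *VSIG1* (0.88) and *ANXA8L1* (-1.42), with an FDR of 0.0525 to 0.665 over the 6. *AC245041.2* was called in 12 of the 20 settings, and it lost its call without any 1 of the 5 libraries in 5-FU (FDR 0.0587 to 0.148). Without *WT* 5-FU replicate 2, *VSIG1* (FDR 0.0718) and *ANXA8L1* (FDR 0.127) lost theirs too. The log2 fold change of *CBS* was 2.18 without that library and 1.04 without *WT* 5-FU replicate 3, and the call stood in both.

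*CBS* and *ANXA8L1* each have a near-identical copy, between which reads can be split. *CBS* had 206 and 71 counts in *WT* 5-FU and 354, 274 and 211 in *KO* 5-FU, while its copy *CBSL* had 1 and 34, and 16, 165 and 163. The split thus differed between replicates of the same state. Their sum was 5.30 and 3.59 CPM in *WT* 5-FU and 15.4, 17.1 and 16.4 in *KO* 5-FU, a ratio of 3.66, compared with 3.0 for *CBS* alone, and the replicates in *KO* cells were closer together (SD 0.860 against 2.84 CPM). In DMSO the sum was 0.0421 to 0.211 CPM in *WT* cells and 0.355 to 0.836 in *KO* cells, where 2 of 3 libraries were above the limit of 0.5 CPM. *ANXA8L1* had 4.61 and 3.42 CPM in *WT* 5-FU and 2.33, 2.53 and 2.10 in *KO* 5-FU, and *ANXA8* had 19.3 and 16.6, and 9.39, 9.73 and 9.90. Both copies were lower in *KO* cells in every library, the sum by a ratio of 0.546. In DMSO the sum reached 0.585 CPM. With the reads of each pair summed, a setting chosen after seeing the data, neither sum would meet the selection and 39 genes remained, and both sums were called in the same direction as the single gene.

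In DMSO, where the 41 genes had few counts, 3 were called higher in *KO* cells and 0 lower, against 9.1% and 4.97% of all genes tested. The selection held every DMSO library of both genotypes under 0.5 CPM, so genes with a large difference there were left out beforehand. The shares of all genes, here and below, are not limited in this way and are no like measure. *NR1I2* had 0 counts in all *WT* libraries and 2, 5 and 5 in *KO* cells (FDR 0.00182). *VSIG1* had 0 counts in *WT* cells and 2, 1 and 1 in *KO* cells (FDR 0.0351), and *HSD3BP5* had 0, 0 and 1 and 1, 4 and 2 (FDR 0.0468). These calls rest on at most 5 counts in a library, and no fold change is given. By edgeR there were 6 of the 41 at an unadjusted p under 0.05, all higher in *KO* cells (14.6%, against 28% of all genes tested that were higher at that p and 52.7% in either direction), and DESeq2 called *NR1I2* higher and 0 genes lower. Leaving out 1 library at a time, the number called was 2 to 4, and *VSIG1*, *HSD3BP5* or both lost the call in 10 of 11 cases, while *NR1I2* kept it in each.

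Gene lists written from general knowledge place few of the 41 genes, and the lists are not complete. *PURPL* and *PINCR*, given above as p53-induced, are not on the list of p53 targets. Of the epidermal and defense genes above, *HRNR*, *CLCA2*, *KRTAP3-1* and *ANXA8L1* are not on the epidermal list. Of 81 direct p53 targets in the tables, 10 were near silent in DMSO, and *SCN3B* was the only one of the 41, while *PADI4* reached 1.5 CPM in one genotype. Most p53 targets on the list were thus already expressed in DMSO, where their summed level was 4685 to 5751 CPM. Of 73 epidermal genes, 56 were near silent and 2 of them, *RNASE7* and *SERPINB7*, were among the 41, with *FLG* and *TGM5* past the limit in one genotype. Of 32 near-silent neuronal genes 1 was among them (*SCN2A*), of 31 of striated muscle 1 (*TNNI2*), and of 46 of intestine and stomach 1 (*VSIG1*, with *VIL1* past the limit in one genotype). Of near-silent genes, 0 of 47 germ cell and cancer-testis genes, 0 of 38 cytokines and chemokines (*IL1A* and *IFNE* in one genotype), 0 of 28 blood cell markers and 0 of 15 stromal and endothelial markers were among the 41. Most near-silent genes of each of these lists thus stayed under 1.5 CPM in 5-FU in both genotypes, as did 42557 of all 42650 near-silent genes. The share among the 41 was 10% of near-silent p53 targets, 3.57% of epidermal, 3.13% of neuronal, 3.23% of muscle and 2.17% of intestinal and gastric genes. It was 0% on the other lists with near-silent genes and 0.0961% over all near-silent genes. The latter include many noncoding genes and pseudogenes, and the share was higher among coding genes, with 35 of 6172 near-silent coding genes that had 1 position. Each share above 0% on a list rests on 1 or 2 genes. These differences were not tested, and the lists were written with earlier results known. In the genotype comparison in 5-FU, 18 of 78 p53 targets tested were called higher in *KO* cells and 5 lower, and of 27 epidermal genes tested 2 were called higher and 9 lower, where 7.58% and 10.6% of all genes were. The epidermal list was not alone in this, since 7 of 14 blood cell markers, 7 of 14 intestinal and gastric genes and 6 of 19 striated muscle genes were called lower, and 1, 2 and 1 higher.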

How the data were processed

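RNA of HCT116 cells in 4 states was sequenced by the authors from random primed libraries as paired-end reads, which were mapped with CLC Genomics Workbench to GRCh38 and assigned to ENSEMBL genes (release not given in the sources used here). Each deposited file lists whole-number counts by gene symbol, to which no scaling or filter had been applied. Samples were grouped by their titles. All 41 genes and the gene lists were chosen with earlier results of these data known, and roles were assigned after their values were seen.

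CPM used library totals. Genotypes were compared with edgeR 4.0.16 (quasi-likelihood test, two-sided, upper-quartile factors, genes reaching 20 counts in 1 library or more, 1 mean per state), adjusted over 16123 genes, which included all 41. The procedure was tested on simulated data. Alternatives were DESeq2 1.42.0, other scalings and filters, RUVg, a replicate block, only 5-FU libraries, and each library left out. In the text were named the genes with the highest CPM, those called, those on a list, those with at most 3 counts in DMSO, the 5 genes nearest each limit, and the others once, except 1 gene that is counted in all summaries but is not reported here by name. Python 3.11.15 and R 4.3.3 were used.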

Additional observations from a re-analysis of the deposited data

How the results depend on the processing

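The set had 40 to 46 genes when 1 library was left out at a time, and 40 or 41 of the 41 were kept. With totals scaled by upper-quartile factors it had 40 genes (without *NR1I2*) and with TMM factors 41. In 5-FU, leaving out 1 library at a time gave 5 to 6 genes higher and 3 to 4 lower. TMM factors, no filter and filterByExpr kept all 10 calls, DESeq2 kept 9 (without *AC245041.2*), and a fit of the 5-FU libraries alone added *CEP295NL* and *TAC3*. With the RUVg factor, 2 genes were called higher and 2 lower, and the cause was not tested. In DMSO, leaving out 1 library gave 2 to 4 genes higher and 0 lower, and DESeq2 gave 1 higher in place of 3. No setting turned the direction of a called gene.

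Deviations of same-numbered samples of different states had correlations of -0.206 to 0.204, with 6 of 15 over 0.1. Those of differently numbered samples had -0.323 to 0.323, with 6 of 30 over 0.1. These values do not settle whether the numbers pair the samples, and the main fit took no pairing. With a replicate block, 6 genes were called higher and 3 lower in 5-FU, the latter without *AC245041.2*, and 2 higher and 0 lower in DMSO.

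Limits: *WT* cells in 5-FU had 2 libraries, so each weighs on every comparison. Levels in DMSO rest on at most 15 counts a library, which does not tell silence from rare transcripts. The sum of *CBS* and *CBSL*, and of *ANXA8L1* and *ANXA8*, would not meet the selection, which then left 39 genes.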
